A study of Mus musculus with 6 samples.

Results

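Regulatory T cells are the CD4 T cells that restrain immune responses, and a small set of genes marks them in the mouse. Measured here were 8 of these genes, taken by name from the 33300 features of an expression table: Foxp3, Ikzf2, Ikzf4, Izumo1r, Gpr83, Nrp1, Capg and Nt5e. All 8 were found in the table. The cells were not sorted as regulatory T cells. They were naive CD4 T cells of female mice, matched for age, that were stimulated for 5 days on plates coated with antibodies to CD3 and CD28 under Th17 conditions, and they carried either of 2 genotypes. The SLE1.2.3 group had 3 mice of the lupus-prone line usually described as carrying the susceptibility intervals Sle1, Sle2 and Sle3, and the control group had 3 mice labelled WT. The medium of every culture held 1 ng/mL TGF-β1, 50 ng/mL IL-6, 10 ng/mL IL-1β and 10 ng/mL IL-23, with antibodies against IL-4 and against interferon-γ at 10 µg/mL each. Neither the age nor the strain background is given in the sources used.

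Foxp3 is the transcription factor that fixes the regulatory T cell fate, and it is induced by TGF-β together with IL-2. When IL-6 is present with TGF-β, activated CD4 T cells are instead directed towards the Th17 fate. The other genes are part of the programme that goes with Foxp3: the Ikaros family factors Helios (Ikzf2) and Eos (Ikzf4), the receptors Izumo1r, Gpr83 and Nrp1, the actin capping protein Capg and the ectoenzyme CD73 (Nt5e). Several of them are also made by activated T cells or by other cell types, so none of the 8 is a measure of regulatory T cells by itself.

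Depth, in units of 1000000 assigned reads per library, lay between 61.7 and 83.5 in the SLE1.2.3 group and between 29.7 and 56.8 in the control group. Control mouse 3 had the lowest depth and 2.37% ribosomal RNA, against 0.187% to 0.281% in the other libraries. Its values summed to 3.86e+05 FPKM, against 2.97e+05 to 3.14e+05 FPKM in the others. SLE1.2.3 libraries 2 and 3 stood furthest from the controls in the γδ and CD8 T cell genes given here, with library 1 between. The same order held on the first principal component of all tested genes, the axis with most of the variance (78.4%). SLE1.2.3 libraries 1, 2 and 3 lay at 4.25, 33.9 and 49.0 on it, and the controls between -29.5 and -28.6. How far this bears on each result below was not tested. The CD4 coreceptor gene Cd4 was at 257, 144 and 71.6 FPKM (fragments per kilobase of transcript, scaled to the assigned reads of the library) in SLE1.2.3 mice 1, 2 and 3, against 246, 264 and 253 FPKM in control mice 1, 2 and 3. Over 9 γδ T cell genes the summed level was 59.0, 271 and 601 FPKM in the SLE1.2.3 mice and between 3.10 and 3.87 FPKM in the controls. Over 11 CD8 T and NK cell genes it was 70.0, 272 and 372 FPKM in the SLE1.2.3 mice and between 15.5 and 17.3 FPKM in the controls. Cd8a stood at 1.34, 21.4 and 56.4 FPKM in SLE1.2.3 mice 1, 2 and 3, and its highest control value was 0.508 FPKM. Trdc was at 4.96, 18.9 and 45.2 FPKM in the SLE1.2.3 mice, also above the 0.592 to 0.661 FPKM of the controls in mouse 1. The NK receptor gene Ncr1 was at most 0.032 FPKM, and the plasmacytoid dendritic cell gene Siglech at most 0.010 FPKM. Other genes of their lists differed between the groups. Klrk1 stood at 2.49, 9.75 and 11.7 FPKM in SLE1.2.3 mice 1, 2 and 3, while its control values lay between 0.115 and 0.192 FPKM. Xcr1 stood at 0.901, 3.89 and 5.25 FPKM in these mice, while its control values lay between 0.043 and 0.060 FPKM. Cd68, from the list of Xcr1, was lower in every SLE1.2.3 mouse than in any control. Whether NK or dendritic cells were present was not tested. Summed over 14 myeloid and dendritic cell genes, the level was between 10.6 and 15.0 FPKM in the SLE1.2.3 mice and between 9.31 and 10.9 FPKM in the controls. Over 10 B cell genes it was between 128 and 185 FPKM in the SLE1.2.3 mice and between 56.3 and 63.4 FPKM in the controls. By limma, described below, 8 of 9 tested γδ genes, 5 of 7 CD8 T and NK genes, 3 of 4 B cell genes and 1 of 4 myeloid genes were higher and 1 of 4 myeloid genes was lower, where 9.65% of all tested genes were higher and 5.58% lower. By limma voom on read numbers it was 1 of 9, 4 of 9, 2 of 9 and 0 of 11 higher, and 1 myeloid gene lower, where 6.91% of all features were higher and 4.82% lower. All 9 γδ genes, and 3, 2 and 1 of the tested genes of the other lists, passed the level filter through the SLE1.2.3 libraries alone, so these limma counts are not shares of their lists. Of 12 general T cell genes, Cd4 among them and many shared with γδ and CD8 T cells, 0 passed (limma, and 0 by limma voom). Of the 12, 3 had an unadjusted p under 0.05 (limma), all higher: Cd247, Lat and Cd3g. Over all 11378 tested genes, 3977 had such a p in either direction. Of 12 Th17 genes, 8 were higher by limma and 8 by limma voom. The part of these other cells in the results was not tested. In bulk RNA, fewer cells of a type and less RNA per cell cannot be told apart.

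SLE1.2.3 cells held less RNA of Ikzf4 and Izumo1r than control cells, and Capg and Nt5e did not pass the test. These 4 were the genes that reached 1 FPKM as a mean of all libraries. In limma's fit on log2(FPKM + 1), 2 of the 4 passed an adjusted p of 0.05 (Benjamini-Hochberg over 11378 tested genes), both of them lower. Of all tested genes 15.2% passed, 9.65% higher and 5.58% lower. The other 4 genes, Foxp3, Ikzf2, Gpr83 and Nrp1, lay below that filter, and with no filter 0 of the 8 passed (limma), where 2.66% of 30034 features did, 1.62% higher and 1.03% lower. Of the 8, 6 had an unadjusted p under 0.05 in that fit, as did 6210 of the 30034 features. The log2(FPKM + 1) scale compresses such low levels, so read numbers, worked back from the smallest FPKM steps, were also fitted with limma voom. There, 5 of the 8 passed: Foxp3 and Ikzf2 were higher in SLE1.2.3 cells and Gpr83, Izumo1r and Ikzf4 were lower, where 11.7% of 16269 features passed, 6.91% higher and 4.82% lower. Related genes from 8 lists are given below, mainly from limma's fit, and 24 of them passed that fit. With each mouse left out in turn, 5 of the 24 passed every time, among them Tigit, Rora, Adora2a and Cish. The other 19 lost the call without SLE1.2.3 mouse 2 and also without control mouse 2, and their direction held in every setting.

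**Figure D1:**
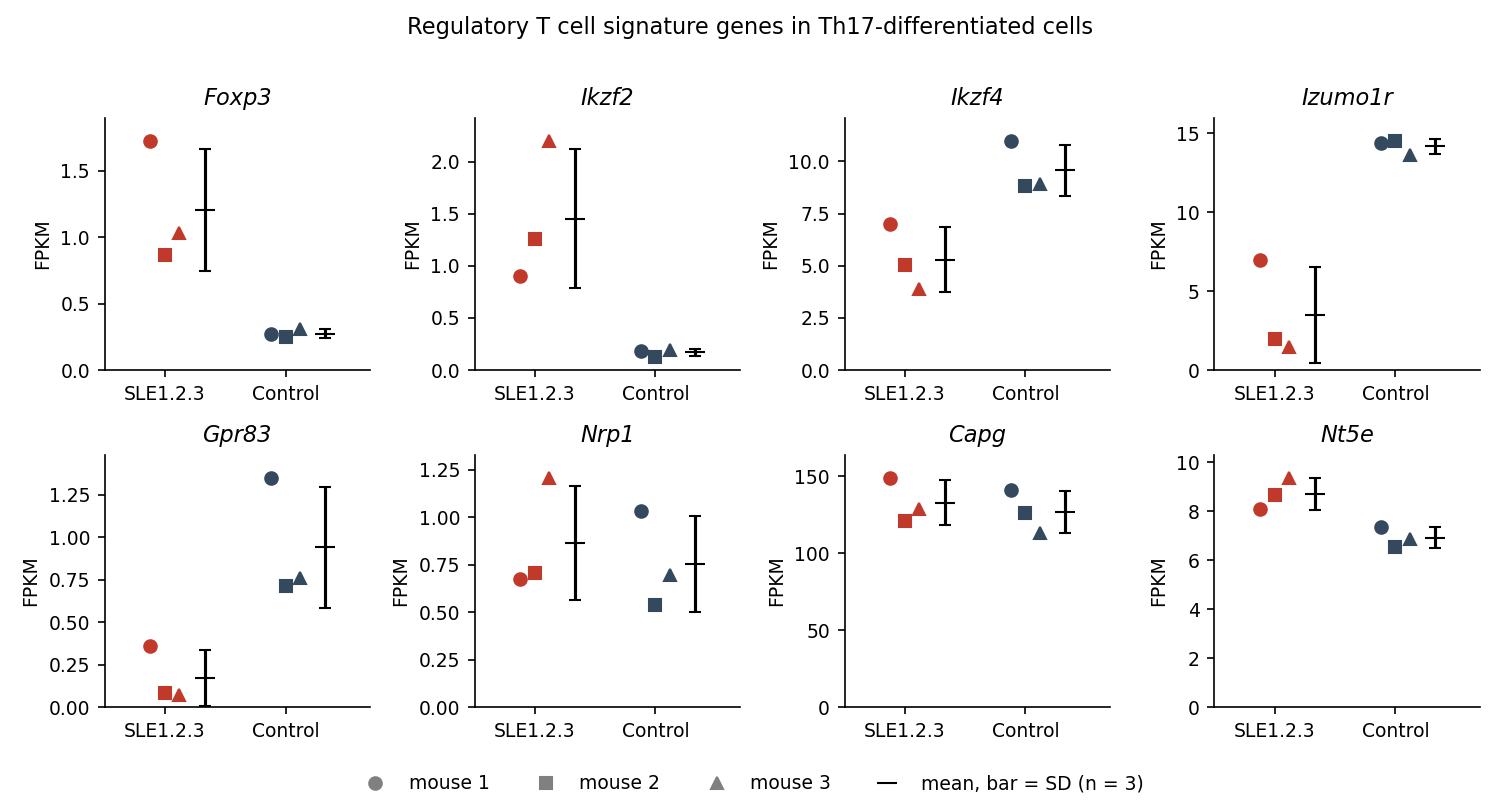
FPKM (y axis, linear from 0) of each of the 8 genes in the SLE1.2.3 libraries (red, left) and the control libraries (dark, right). Each point is 1 mouse, and the bar is the mean with its SD (n = 3). Foxp3, Ikzf2 and Nt5e have all 3 SLE1.2.3 values above the controls, Ikzf4, Izumo1r and Gpr83 have them below, and the groups of Nrp1 and Capg overlap.

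The groups did not overlap for 6 of the 8 genes, 3 with SLE1.2.3 values above all controls and 3 below. Over the features above 0 in at least 1 library this held for 25.9%, with 15% higher and 10.9% lower. Among those that passed the 1 FPKM filter it held for 41.5%, with 23.9% higher and 17.7% lower. The levels spanned a wide range. Capg averaged 133 FPKM in SLE1.2.3 cells and 127 FPKM in control cells, above 99.1% of the features in the table by its mean over all 6 libraries. The order of the others differed by genotype. In SLE1.2.3 cells Nt5e (8.71 FPKM), Ikzf4 (5.30 FPKM) and Izumo1r (3.46 FPKM) followed, then Ikzf2 (1.45 FPKM), Foxp3 (1.21 FPKM), Nrp1 (0.864 FPKM) and Gpr83 (0.173 FPKM). In control cells it was Izumo1r (14.2 FPKM), Ikzf4 (9.58 FPKM) and Nt5e (6.93 FPKM), then Gpr83 (0.940 FPKM), Nrp1 (0.754 FPKM), Foxp3 (0.275 FPKM) and Ikzf2 (0.169 FPKM). In SLE1.2.3 cells the neighbours Ikzf4 and Izumo1r, Izumo1r and Ikzf2, Ikzf2 and Foxp3, and Foxp3 and Nrp1 overlapped between mice, and in control cells Gpr83 and Nrp1 did.

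Foxp3 lies on the X chromosome (chrX:7573644-7595245, plus strand, mm10). It had 1.73, 0.864 and 1.03 FPKM in SLE1.2.3 mice 1, 2 and 3, against 0.269, 0.246 and 0.309 FPKM in control mice 1, 2 and 3. These values rest on 660, 244 and 355 reads in the SLE1.2.3 libraries and on 62, 64 and 42 reads in the controls. Every SLE1.2.3 mouse was above every control, and mouse 1 was the highest. The means were 1.21 ± 0.458 FPKM in SLE1.2.3 cells and 0.275 ± 0.0319 FPKM in control cells (SD, n = 3 each). Their ratio was 4.40. On the log2(FPKM + 1) scale the change was 0.77 ± 0.16 (SE; adjusted p = 0.073, limma with no filter), and on the read scale it was 2.12 ± 0.37 (SE; adjusted p = 0.021, limma voom). Leaving out SLE1.2.3 mice 2 and 3, where Cd8a and Trdc were highest, gave 2.67 on the read scale, from 1 SLE1.2.3 library. That fit holds no spread among SLE1.2.3 mice, so no p-value is given for it here or below. The voom call ended without any 1 of control mice 1, 2 or 3, with an adjusted p of 0.099, 0.11 and 0.076.

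Foxp3 per Cd4 was 0.00672, 0.00600 and 0.0144 in the SLE1.2.3 mice and 0.00109, 0.000930 and 0.00122 in the controls. This ratio, and those below, were chosen after the values were seen and carry no test. Exons of Foxp3 share 590 bases with Ccdc22, 266 with Ppp1r3f and 373 with Gm36995, all on the other strand, and 853 bases with Flicr, a long noncoding RNA that begins at the Foxp3 locus and is known to limit Foxp3 expression. The counting's strand setting is not stated, so reads of overlapping genes cannot be told apart. Flicr was at 0.217, 0.145 and 0.134 FPKM in the SLE1.2.3 mice and at 0.144, 0.192 and 0.160 FPKM in the controls, which overlap. Ppp1r3f was at 0.416, 0.305 and 0.289 FPKM in the SLE1.2.3 mice and at 0.297, 0.318 and 0.405 FPKM in the controls, which overlap and lie around the level of Foxp3 itself in the controls. Gm36995 was at most 0.065 FPKM and Ccdc22 at most 0.009 FPKM.

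The sequence before a Foxp3 start is shown because this gene defines the lineage. RefSeq's promoter table (GRCm38.p6, the assembly called mm10) holds 6 of the 8 genes and 2 starts for Foxp3. In the window of the first, TATAAA lies 32 to 27 bases before the start. The line gives the 250 bases before the second, chrX:7580233-7580482, plus strand, a stretch that lies in no GENCODE M21 exon of the gene. Capitals mark motif matches.
Foxp3: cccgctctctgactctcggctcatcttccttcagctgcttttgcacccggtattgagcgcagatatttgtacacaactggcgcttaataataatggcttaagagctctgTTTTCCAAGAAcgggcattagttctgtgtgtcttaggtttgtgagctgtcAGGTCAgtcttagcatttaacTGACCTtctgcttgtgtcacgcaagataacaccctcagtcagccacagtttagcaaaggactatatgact
On either strand, 6 motifs were searched: the RUNX motif TGTGGT, the forkhead motif TGTTTAC, the STAT motif TTCNNNGAA, the nuclear receptor half-site AGGTCA, the NFAT motif GGAAAA and the core promoter box TATAAA. This window holds AGGTCA at 91 to 86 bases before the start and its reverse complement at 70 to 65. It holds TTCNNNGAA at 139 to 131, overlapped by the reverse complement of GGAAAA at 141 to 136. Of 27025 promoters, the 250 bases before the start hold AGGTCA in 13.8%, TTCNNNGAA in 7.18% and GGAAAA in 20.6%. A match is a description of the letters and does not show binding, and gene totals do not separate the 2 starts.

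The Ikaros family genes Ikzf2 and Ikzf4 differed between the genotypes in opposite directions. Helios, the product of Ikzf2, is a zinc finger factor abundant in thymus-derived regulatory T cells and also seen in activated T cells. Ikzf2 (chr1:69531214-69687245, minus strand) had 0.902, 1.26 and 2.20 FPKM in SLE1.2.3 mice 1, 2 and 3, against 0.183, 0.129 and 0.194 FPKM in control mice 1, 2 and 3. That is 874, 902 and 1919 reads in the SLE1.2.3 libraries and 107, 85 and 67 reads in the controls. All SLE1.2.3 values were above all control values, with mouse 3 the highest. The ratio of the means was 8.62. The change was 1.04 ± 0.20 on the log2(FPKM + 1) scale (SE; adjusted p = 0.064, limma with no filter) and 3.05 ± 0.53 on the read scale (SE; adjusted p = 0.020, limma voom). Removing SLE1.2.3 mouse 2 (adjusted p = 0.066) or control mouse 1, 2 or 3 (adjusted p = 0.096, 0.11 and 0.076) ended the voom call. With mice 2 and 3 of the SLE1.2.3 group removed together, the change of Ikzf2 was 2.47 on the read scale, from 1 library in that arm. Trdc, at 4.96, 18.9 and 45.2 FPKM in SLE1.2.3 mice 1, 2 and 3, had the same order over these libraries as Ikzf2, and its part in the difference was not tested.

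Eos, the product of Ikzf4, works with Foxp3 to silence genes in regulatory T cells. Ikzf4 (chr10:128630843-128669358, minus strand) stood at 6.99, 5.02 and 3.88 FPKM in SLE1.2.3 mice 1, 2 and 3, against 11.0, 8.82 and 8.94 FPKM in control mice 1, 2 and 3. Its highest SLE1.2.3 value, in mouse 1, was below the lowest control. It fell by 0.77 on the log2(FPKM + 1) scale (SE 0.19; adjusted p = 0.043, limma), with means of 5.30 ± 1.57 FPKM in SLE1.2.3 cells and 9.58 ± 1.22 FPKM in control cells (SD, n = 3 each). The call ended without any mouse other than SLE1.2.3 mouse 1: the adjusted p was 0.14 and 0.060 without SLE1.2.3 mouse 2 or 3, and 0.14, 0.12 and 0.11 without control mouse 1, 2 or 3. Removing mice 2 and 3 of the SLE1.2.3 group together gave -0.40, from 1 library in that arm. Ikzf4 per Cd4 was 0.0272, 0.0348 and 0.0541 in the SLE1.2.3 mice and 0.0447, 0.0333 and 0.0353 in the controls, so on this ratio the groups overlapped. The gene model in the table reaches past the GENCODE M21 end at 128645991, so the reads counted for it may differ from those of that model.

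Ikzf4 per Ikzf2, both as FPKM, was 7.75, 3.99 and 1.76 in SLE1.2.3 mice 1, 2 and 3 and 60.1, 68.3 and 46.1 in control mice 1, 2 and 3, with no overlap. The other family members were Ikzf1 (Ikaros), Ikzf3 (Aiolos) and Ikzf5 (Pegasus). Ikzf1 was the most abundant of the family, at 73.1 to 81.5 FPKM in SLE1.2.3 cells and 70.5 to 77.8 FPKM in control cells (adjusted p = 0.52, limma). Ikzf3 was at 9.93, 13.0 and 21.2 FPKM in the SLE1.2.3 mice and between 6.80 and 7.30 FPKM in the controls, a log2 change of 0.89 ± 0.24 that did not pass (SE; adjusted p = 0.057, limma). Ikzf5 stayed below the filter, at a mean of 0.610 FPKM in SLE1.2.3 cells and 0.635 FPKM in control cells.

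**Figure D2:**
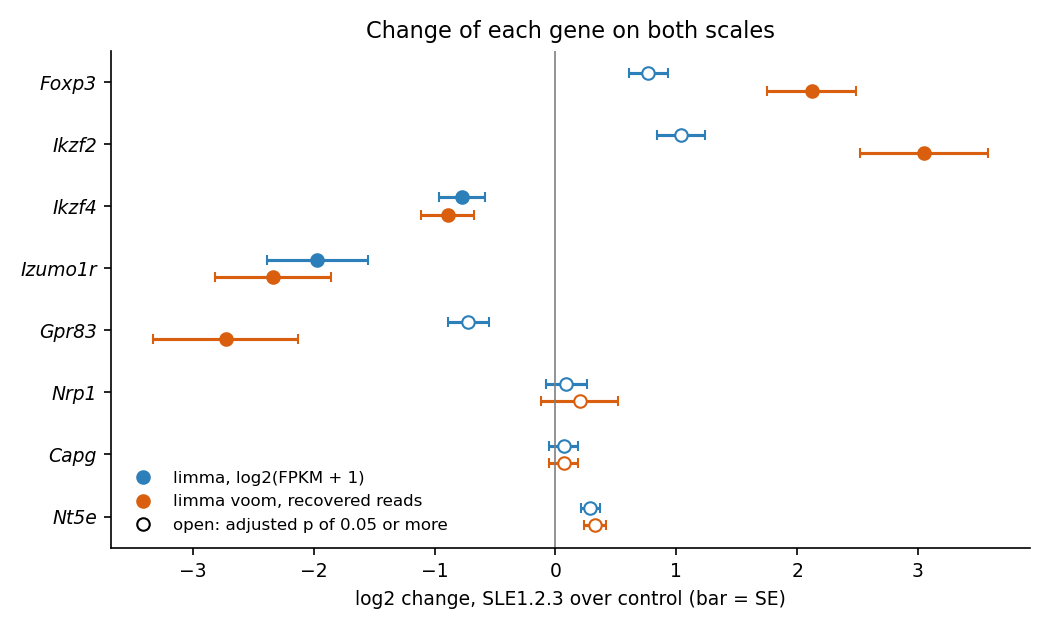
Log2 change of each gene, SLE1.2.3 over control (x axis, bar = SE), in limma's fit on log2(FPKM + 1) (blue, with no filter for Foxp3, Ikzf2, Gpr83 and Nrp1) and in limma voom on recovered reads (orange). Filled points have an adjusted p under 0.05. Ikzf4 and Izumo1r are filled on both scales, and Foxp3, Ikzf2 and Gpr83 on the read scale.

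Among the receptors, Izumo1r and Gpr83 were lower in SLE1.2.3 cells and Nrp1 overlapped. Izumo1r, once called folate receptor 4, is a surface protein of mouse regulatory T cells, and on the egg it is the receptor for the sperm protein Izumo1. Izumo1r (chr9:14885814-14903949, minus strand) had 6.97, 1.97 and 1.45 FPKM in SLE1.2.3 mice 1, 2 and 3, against 14.4, 14.5 and 13.6 FPKM in control mice 1, 2 and 3. The controls were nearly level, and every SLE1.2.3 mouse lay below them, with mouse 1 between the controls and mice 2 and 3. It fell by 1.97 on the log2(FPKM + 1) scale (SE 0.42; adjusted p = 0.032, limma), with means of 3.46 ± 3.05 FPKM in SLE1.2.3 cells and 14.2 ± 0.482 FPKM in control cells (SD, n = 3 each). The call ended without any mouse other than SLE1.2.3 mouse 1: the adjusted p was 0.12 and 0.051 without SLE1.2.3 mouse 2 or 3, and 0.11, 0.11 and 0.10 without control mouse 1, 2 or 3. Removing mice 2 and 3 of the SLE1.2.3 group together gave -0.93, from 1 library in that arm. Izumo1r per Cd4 was 0.0271, 0.0137 and 0.0203 in the SLE1.2.3 mice and 0.0584, 0.0549 and 0.0538 in the controls, with no overlap.

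Gpr83, a G protein-coupled receptor whose RNA is enriched in regulatory T cells, lies next to Izumo1r on chromosome 9 (chr9:14860210-14870789, plus strand), with 15.0 kb between the ends of the gene bodies. It stood at 0.362, 0.083 and 0.073 FPKM in SLE1.2.3 mice 1, 2 and 3, against 1.35, 0.712 and 0.759 FPKM in control mice 1, 2 and 3. The values rest on 154, 26 and 28 reads in the SLE1.2.3 libraries and on 346, 206 and 115 reads in the controls. The exact 95% Poisson interval of the 26 reads is 17.0 to 38.1, and it covers counting error only. As for Izumo1r, all SLE1.2.3 values were below all controls and mouse 1 was the highest of the 3. The change was -0.72 ± 0.17 on the log2(FPKM + 1) scale (SE; adjusted p = 0.089, limma with no filter) and -2.73 ± 0.60 on the read scale (SE; adjusted p = 0.034, limma voom). Removing SLE1.2.3 mouse 2 or 3 (adjusted p = 0.13 and 0.061) or control mouse 1, 2 or 3 (adjusted p = 0.11, 0.10 and 0.096) ended the voom call. Removing mice 2 and 3 of the SLE1.2.3 group together gave -1.33 on the read scale, from 1 library in that arm. Izumo1r per Gpr83 was 19.2, 23.7 and 19.9 in the SLE1.2.3 mice and 10.7, 20.4 and 18.0 in the controls, which overlap.

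The sequences before the starts of these neighbours are shown because both genes were lower. The gene starts lie at the outer ends of the pair, so the genes are transcribed towards each other. The Gpr83 line gives chr9:14859960-14860209 (plus strand) and the Izumo1r line chr9:14903950-14904017 (minus strand), from RefSeq (GRCm38.p6). For Izumo1r only the 68 bases outside GENCODE M21 exons of the gene are given. They are the far end of its 250-base window. They reach the start of the GENCODE gene model at 14903949 but not the RefSeq start, which lies further in.
Gpr83: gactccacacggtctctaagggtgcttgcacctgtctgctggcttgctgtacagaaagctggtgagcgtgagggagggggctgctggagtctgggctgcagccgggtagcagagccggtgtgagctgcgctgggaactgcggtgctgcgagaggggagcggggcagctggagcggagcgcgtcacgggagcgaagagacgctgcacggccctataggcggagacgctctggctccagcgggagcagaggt
Izumo1r: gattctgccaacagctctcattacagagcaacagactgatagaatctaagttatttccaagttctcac
None of the 6 motifs is in these stretches. The part of the Izumo1r window that is not printed holds the reverse complement of TGTGGT, a motif found in 14.2% of promoters.

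**Figure D3:**
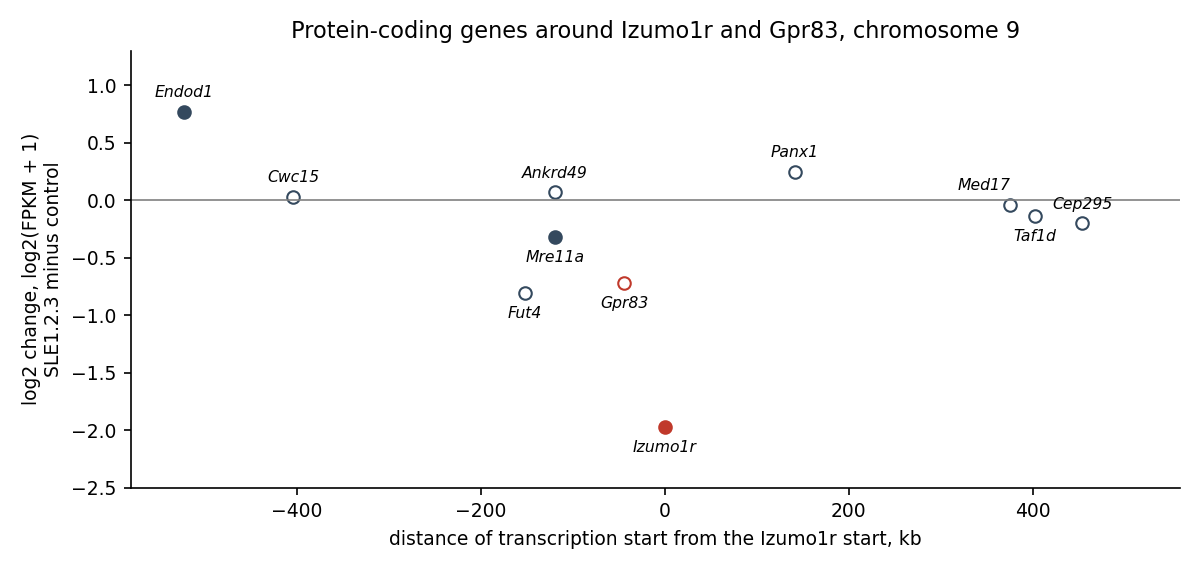
Log2 change on the log2(FPKM + 1) scale, SLE1.2.3 minus control (y axis), against the distance of each gene's start from that of Izumo1r in kb (x axis), for the 10 tested protein-coding genes of the window and for Gpr83, which lay below the filter. Filled points passed limma at an adjusted p of 0.05: Izumo1r and Mre11a below 0 and Endod1 above 0. Izumo1r and Gpr83 are red.

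Around this pair, 30 features above 0 overlapped a window that reached 500 kb to each side, and 12 of them were tested. Of the 12, Endod1 was higher and Izumo1r and Mre11a were lower, where 9.65% of all tested genes were higher and 5.58% lower. Mre11a, a DNA double-strand break repair gene, was at 9.81 to 10.0 FPKM in SLE1.2.3 cells and 12.1 to 13.0 FPKM in control cells (log2 change -0.32, adjusted p = 0.019, limma). Fut4, a fucosyltransferase gene, had 4.93, 1.35 and 0.644 FPKM in SLE1.2.3 mice 1, 2 and 3 and 4.74, 4.10 and 3.22 FPKM in control mice 1, 2 and 3, and did not pass (adjusted p = 0.25, limma). Panx1, on the other side, was at 6.54 to 8.04 FPKM in SLE1.2.3 cells and 5.66 to 6.32 FPKM in control cells (adjusted p = 0.094, limma). The window and these neighbours were chosen after the values were seen.

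Nrp1 encodes neuropilin 1, a receptor for semaphorins and VEGF that marks thymus-derived regulatory T cells in the mouse. Nrp1 (chr8:128358604-128503363, plus strand) stood at 0.677, 0.706 and 1.21 FPKM in SLE1.2.3 mice 1, 2 and 3, against 1.03, 0.536 and 0.694 FPKM in control mice 1, 2 and 3. The highest value in each group came from a different mouse number, and the groups overlapped. The change was 0.20 ± 0.32 on the read scale (SE; adjusted p = 0.70, limma voom), and its sign turned when single libraries were left out. Among 7 tested genes of neuropilins, semaphorins, VEGFs and plexins, 0 rose and 1 fell, where 9.65% of all tested genes rose and 5.58% fell. At an unadjusted p under 0.05, 1 was higher and 2 were lower (limma), where 3977 of 11378 tested genes had such a p in either direction. By limma voom, 0 of 10 tested genes of this list rose and 2 fell, where 6.91% of all features rose and 4.82% fell. Plxna1, a plexin that pairs with neuropilin 1, fell by 0.48 (adjusted p = 0.050, limma, just under the threshold, and 0.14 after rescaling to a common FPKM sum).

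Capg and Nt5e, the members with roles outside transcription and signalling, did not pass the test. Capg, a gelsolin family protein that caps actin filaments and is also abundant in macrophages (chr6:72544391-72562983, plus strand), had 149, 121 and 129 FPKM in SLE1.2.3 mice 1, 2 and 3, against 141, 126 and 113 FPKM in control mice 1, 2 and 3. The groups overlapped, with a log2 change of 0.07 ± 0.12 (SE; adjusted p = 0.70, limma), and the sign turned under quantile normalization (-0.02). Of 10 tested genes of the gelsolin family and other actin regulators, 2 rose, where 9.65% of all tested genes did. They were Svil, by 0.29 (adjusted p = 0.031, limma), and Capza2, a subunit of the capping protein, by 0.56 (adjusted p = 0.049, limma). Neither passed after rescaling to a common FPKM sum (adjusted p = 0.12 and 0.051, limma).

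Nt5e encodes CD73, which turns AMP outside the cell into adenosine after CD39, the product of Entpd1, has turned ATP into AMP. Nt5e (chr9:88327197-88372092, plus strand) stood at 8.09, 8.68 and 9.37 FPKM in SLE1.2.3 mice 1, 2 and 3, against 7.38, 6.52 and 6.88 FPKM in control mice 1, 2 and 3. All SLE1.2.3 values were above all controls, by a small margin. The log2 change of 0.29 ± 0.08 did not pass (SE; adjusted p = 0.052, limma). It passed in 3 of 17 other settings. These were a pseudocount of 0.1 (adjusted p = 0.050, limma, just under the threshold), no SLE1.2.3 mouse 1 (0.020), and array weights (0.0010), whose estimation did not converge. Entpd1 did rise, to 1.66, 2.25 and 2.80 FPKM in SLE1.2.3 mice 1, 2 and 3, against 0.765, 1.04 and 0.844 FPKM in control mice 1, 2 and 3, a log2 change of 0.77 (adjusted p = 0.025, limma). Its control mean of 0.884 FPKM lay below the filter, so it was tested through the SLE1.2.3 libraries, and with no filter it did not pass (adjusted p = 0.072, limma). Nt5e per Entpd1 was 4.86, 3.86 and 3.34 in the SLE1.2.3 mice and 9.64, 6.24 and 8.15 in the controls.

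Of 9 tested genes of the adenosine pathway, Nt5e and Entpd1 included, 3 rose, 2 fell and 4 did not pass, where 15.2% of all tested genes passed. The list had a median log2 change of 0.29, against 0.01 over all tested genes. The adenosine receptor gene Adora2a, whose product raises cyclic AMP in T cells, had 11.1, 11.5 and 12.4 FPKM in SLE1.2.3 mice 1, 2 and 3 and 6.51, 7.22 and 7.38 FPKM in control mice 1, 2 and 3 (log2 change 0.66, adjusted p = 0.0072, limma). Adora2b had a log2 change of 0.78 just past the threshold (adjusted p = 0.048, limma), which was lost with no filter (0.12), by limma voom (0.071) and without any mouse other than SLE1.2.3 mouse 1 (0.090 to 0.17). Slc29a1, a nucleoside transporter, fell by 0.30 (adjusted p = 0.024, limma), and Dpp4, which anchors adenosine deaminase at the cell surface, fell by 0.56 (adjusted p = 0.036, limma). Neither passed after rescaling to a common FPKM sum (adjusted p = 0.51 and 0.10, limma). Ada, Adk and Pnp, which consume adenosine or its product inosine, had adjusted p-values of 0.28, 0.36 and 0.26. Adora1, Adora3 and Slc29a2 lay below the filter. Adora3 was at 0.244, 0.852 and 0.978 FPKM in the SLE1.2.3 mice and at most 0.059 FPKM in the controls.

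**Figure D4:**
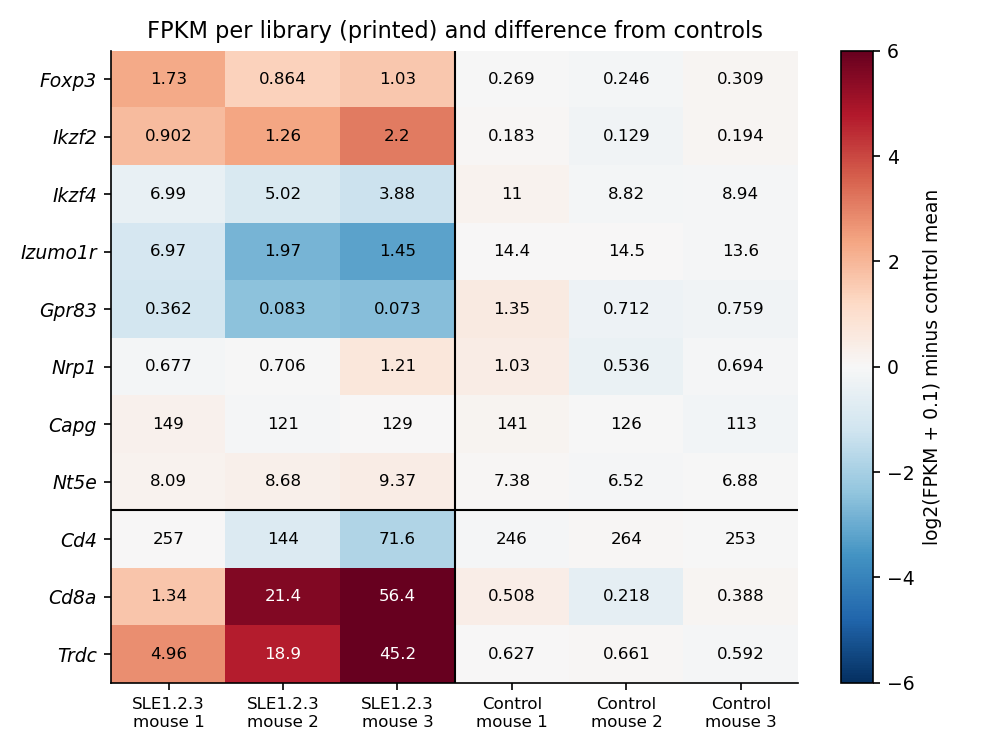
FPKM of the 8 genes (above the line) and of Cd4, Cd8a and Trdc in each library, printed in the cells. Colour gives log2(FPKM + 0.1) minus the mean of the controls. Izumo1r, Gpr83 and Cd4 are lower in SLE1.2.3 mice 2 and 3 than in SLE1.2.3 mouse 1, Ikzf2, Cd8a and Trdc are higher there, and Foxp3 is highest in SLE1.2.3 mouse 1.

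Other genes of the regulatory T cell signature did not move one way. By limma, of 21 tested in a list of 25, 4 rose, 4 fell and 13 did not pass, where 9.65% of all tested genes rose and 5.58% fell. The median log2 change was -0.40, against 0.01 over all tested genes. By limma voom, 6 of the 25 rose and 4 fell, where 6.91% of all features rose and 4.82% fell. The genes below are those of the limma fit. Tigit, an inhibitory receptor, rose to 22.1, 33.3 and 28.2 FPKM in SLE1.2.3 mice 1, 2 and 3, against 4.76, 6.07 and 4.43 FPKM in control mice 1, 2 and 3 (log2 change 2.24, adjusted p = 0.0025, limma). Entpd1 is given above. Frmd4b also rose, to 1.55, 3.34 and 3.42 FPKM in the SLE1.2.3 mice, against 0.527 to 0.580 FPKM in the controls, so that it passed the filter through the SLE1.2.3 libraries (adjusted p = 0.020, limma, and 0.061 with no filter). Of the 21 tested, 4 passed the filter in this way. The other gene that rose was Fgl2, a secreted effector of suppression, with 17.0, 56.5 and 87.6 FPKM in the SLE1.2.3 mice and 5.54, 7.85 and 9.14 FPKM in the controls.

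Those that fell were Ecm1, Socs2, Swap70 and Lrrc32. Ecm1, a secreted matrix protein gene, stood at 131, 64.8 and 35.6 FPKM in SLE1.2.3 mice 1, 2 and 3, against 341, 331 and 291 FPKM in control mice 1, 2 and 3 (log2 change -2.24, adjusted p = 0.024, limma). Socs2, a feedback inhibitor of cytokine receptors, fell by 2.43 (adjusted p = 0.026, limma), and Swap70, which acts on the actin cytoskeleton, by 0.45 (adjusted p = 0.015, limma, and 0.19 after rescaling to a common FPKM sum). Lrrc32, which encodes GARP, the TGF-β docking receptor of activated regulatory T cells, fell by 2.71 (adjusted p = 0.037, limma). Fgl2 and Lrrc32 were named after their values were seen. The genes used most often beside Foxp3 to define regulatory T cells did not pass. Il2ra, the high-affinity IL-2 receptor chain, averaged 337 FPKM in SLE1.2.3 cells and 318 FPKM in control cells (adjusted p = 0.87, limma). Ctla4 averaged 265 and 354 FPKM in SLE1.2.3 and control cells (adjusted p = 0.21, limma). Tnfrsf18, which encodes GITR, had 83.3, 39.0 and 18.6 FPKM in SLE1.2.3 mice 1, 2 and 3 and between 96.6 and 117 FPKM in the controls (adjusted p = 0.094, limma).

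**Figure D5:**
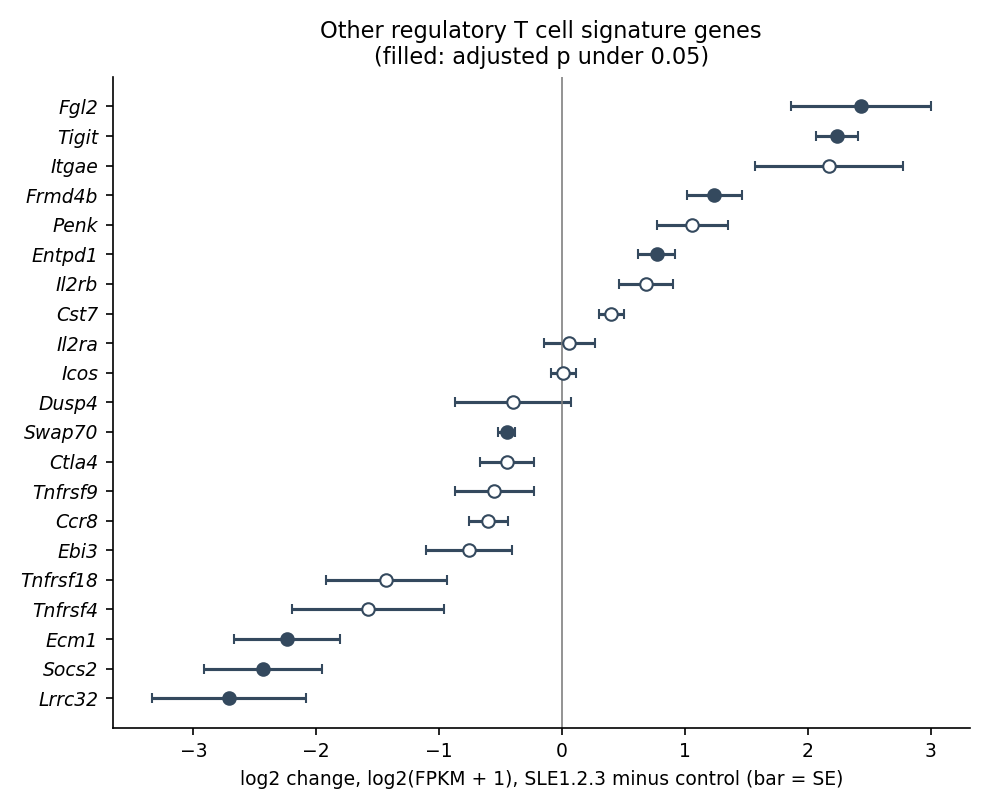
Log2 change on the log2(FPKM + 1) scale, SLE1.2.3 minus control (x axis, bar = SE), of the 21 tested genes of the wider regulatory T cell list. Filled points passed limma at an adjusted p of 0.05: Fgl2, Tigit, Frmd4b and Entpd1 above 0, and Swap70, Ecm1, Socs2 and Lrrc32 below 0.

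Of 36 tested genes that induce, stabilise or oppose Foxp3, 2 rose, 5 fell and 29 did not pass, where 15.2% of all tested genes passed, with a median log2 change of -0.13. Among those that rose, Rora, which encodes a transcription factor that promotes the Th17 fate, had a log2 change of 1.23 (adjusted p = 0.0036, limma). Among those that fell, Ets1, which binds the Foxp3 locus, fell by 0.48, the DNA methyltransferase gene Dnmt3a by 0.53, Foxo3, a forkhead factor that promotes Foxp3, by 0.44 and Xbp1 by 0.67, with adjusted p-values of 0.026, 0.026, 0.032 and 0.029 (limma). After rescaling to a common FPKM sum these 4 did not pass (adjusted p = 0.21, 0.057, 0.20 and 0.11, limma). The fifth, named after its values were seen, was the deacetylase gene Hdac7, with a log2 change of -1.08 (adjusted p = 0.038, limma). The TGF-β signal carriers Smad2, Smad3 and Smad4 had log2 changes of -0.19, -0.00 and -0.17, and none passed. By limma voom, 2 of 37 tested genes of this list rose and 6 fell, where 6.91% of all features rose and 4.82% fell.

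IL-2 maintains Foxp3 through STAT5. Of 14 tested genes of the IL-2 pathway, 0 rose and 3 fell (limma and limma voom), where 5.58% of all tested genes fell. At an unadjusted p under 0.05, 2 were higher and 4 lower (limma), where 3977 of 11378 tested genes had such a p in either direction. Cish, a STAT5 target that dampens the receptor, stood at 25.9, 19.4 and 20.5 FPKM in SLE1.2.3 mice 1, 2 and 3, against 50.4, 45.1 and 46.7 FPKM in control mice 1, 2 and 3 (log2 change -1.09, adjusted p = 0.0065, limma). Il2 itself fell by 1.12 (adjusted p = 0.036, limma), to 2.47, 1.50 and 0.977 FPKM in the SLE1.2.3 mice, against 5.87, 4.99 and 3.29 FPKM in the controls. Socs2, given above, was the other. Stat5a and Stat5b had log2 changes of 0.08 and -0.19 and did not pass.

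In the folate receptor family and its carriers, Izumo1r was the member called of 2 tested by limma, where 15.2% of all tested genes passed. Slc19a1, the reduced folate carrier, averaged 8.27 FPKM in SLE1.2.3 cells and 8.96 FPKM in control cells (adjusted p = 0.44, limma). Folr2, Slc46a1 and Izumo1, the ligand of Izumo1r on sperm, were all below 0.3 FPKM in every library. Izumo1 had 0.012, 0 and 0.004 FPKM in SLE1.2.3 mice 1, 2 and 3 and 0.093, 0.212 and 0.112 FPKM in control mice 1, 2 and 3. By limma voom, 2 of 4 tested genes of this list fell, Izumo1r and Izumo1, where 4.82% of all features fell. The change of Izumo1 was -4.45 on the read scale (adjusted p = 0.018, limma voom).

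Other genes had profiles close to those of Ikzf4 and Izumo1r, the called members. Likeness was the root-mean-square difference between profiles of log2(FPKM + 1), each centred on its mean over the 6 libraries, among 9706 other tested protein-coding genes. For Ikzf4 the closest were Rnf19b, Spef2 and Ccnd2, at 0.0416, 0.0661 and 0.0677. Rnf19b stood at 93.9, 73.1 and 56.7 FPKM in SLE1.2.3 mice 1, 2 and 3 and at 152, 120 and 115 FPKM in control mice 1, 2 and 3. For Izumo1r the closest were Treml2, Pcx and Pdzk1ip1, at 0.143, 0.163 and 0.175. Treml2 was at 23.7, 8.89 and 5.67 FPKM in the SLE1.2.3 mice and at 47.5, 39.3 and 37.0 FPKM in the controls. These distances describe 6 libraries and carry no test.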

How the data were processed

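A SMARTER kit turned the polyadenylated RNA of 6 cultures, 3 per group, into libraries, per the labels' protocols. Tools listed without a role in the submitters' processing notes are STAR 2.7.3a, featureCounts 2.0.0, cutadapt 2.10, FastQC 0.11.9 and DESeq2 1.24.0, and the build is mm10. The authors deposited FPKM values, which are scaled to the reads assigned to the listed features. The sources used here give neither the strand setting of the counting nor its annotation release.

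From these values, the number of assigned reads per library was recovered as the smallest depth at which low values (under 30 reads) were whole within 0.15 of a read, which held for 100% of them. Genes whose mean reached 1 FPKM were fitted as log2(FPKM + 1) with limma 3.58.1 in R 4.3.3 (mean-variance trend, genotype as the only term), with Benjamini-Hochberg adjustment over all 11378 and a threshold of 0.05. Members below the filter were read from the fit with no filter and from limma voom on features with a mean of at least 10 recovered reads. The labels name separate mice, and p-values reflect only how those vary. The filtered limma fit was tested on simulated data with 1 dispersion, 0.02, for all genes and libraries. It recovered 98 of 99 genes changed 2-fold and 96 of 96 changed 4-fold, and 9.77% of its calls were false, above the nominal threshold. The fit with no filter and limma voom were not simulated, nor was a wider spread among the SLE1.2.3 mice. No 2 libraries were identical, and 24 symbols turned into dates were restored from the ID. A value of 0 allows up to 3 reads, counting error only.

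The members and lists were chosen with earlier results of these data known, so counts over them are descriptions. Named genes are the 8 members, up to 6 called genes per list by adjusted p (up to 3 by p where none passed), all genes of the Ikaros, folate and adenosine lists, and the 3 closest profiles of tested members that span at least 1 on the log2 scale. Of 14 lists, 6 were for cell types. For the cell type lists the text gives counts, sums and a few markers in place of the genes named by the rule, and 1 gene taken from the other lists is not reported here. Promoters were from RefSeq. Alternatives were another pseudocount, filter, scaling or variance setting, a block on the mouse number, array weights, voom, and libraries left out.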

Additional observations from a re-analysis of the deposited data

How the results depend on the processing

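Without any filter, 0 members fell and 5 other genes of the lists rose and 4 fell, where 0 members rose and 2 fell and 10 list genes rose and 14 fell in the reported fit. The count of members higher was 1 with a pseudocount of 0.1 or array weights, and 2 by voom on recovered reads. Array weights gave 37 list genes higher and 37 lower. Their estimation stopped before it converged. When SLE1.2.3 libraries 2 and 3 were removed together, that group kept 1 library, so calls of that fit are not given. With 1 mouse left out at a time, members higher ranged from 0 to 1 and members lower from 0 to 2, list genes higher from 4 to 25 and lower from 1 to 32, and the members that voom called higher from 0 to 3 and lower from 0 to 3. Leaving out a mouse moved the calls over all genes too, to 170 higher and 70 lower without SLE1.2.3 mouse 2 and to 2128 and 1573 without SLE1.2.3 mouse 1. The voom leave-outs, and the read minimum for voom, were chosen after seeing the data. Rescaling to a common FPKM sum moved the median log2 change of all genes to 0.11 from 0.01, and Ikzf4 and Izumo1r still passed. Of the 24 called list genes, 10 did not: Swap70, Ets1, Foxo3, Xbp1, Dnmt3a, Dpp4, Slc29a1, Plxna1, Svil and Capza2. That rescaling moved control mouse 3 most, the library with the highest FPKM sum. After rescaling by the median ratio between libraries, these 10 passed. When SLE1.2.3 libraries 2 and 3 were removed, the 24 kept their direction. The direction of Nrp1 turned with array weights (-0.01), when those 2 libraries were removed (-0.05) and within its range of -0.04 to 0.20 with 1 mouse left out. The direction of Capg turned under quantile normalization (-0.02), with array weights (-0.07) and within its range of -0.02 to 0.15 with 1 mouse left out. The other 6 members kept their direction in every setting. Deviations of same-numbered mice from their group means had correlations of -0.00401, 0.1001 and 0.0914. Those of differently numbered mice ranged from -0.190 to 0.125. With 3 mice per group this cannot settle whether the number is a pairing. With the number as a replicate block, 8 list genes rose and 8 fell, and 2 members fell. Depth limits Gpr83 most, with 26 reads in its lowest library.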
